A study of Mus musculus with 64 samples.

Results

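Frontal cortex of wild-type (WT) C57BL/6N mice was compared between postnatal week (PWK) 7 and PWK 1, over every gene of the deposited table. The comparison used 8 of the 64 libraries of the series, 4 from mice of PWK 1 and 4 from mice of PWK 7, which were all the libraries labelled wild-type, cortex and 1 or 7 weeks. The WT mice were littermates of mice with a knock-in (KI) of Arg87Cys in *Cyfip2*, carried no transgene or treatment by the labels, and had the cortex of both hemispheres dissected within one afternoon time window. Each library came from 1 mouse, and no mouse was sampled at both ages. Groups of the same size, 8 libraries each, served for comparison: KI cortex at the same ages, from other mice, and WT hippocampus at the same ages. By the submitters' notes on the design both regions came from each mouse, but the labels do not tie replicate numbers to mice. The whole series also held PWK 14 and PWK 28 and the KI hippocampus.

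In the mouse, cortical neurons have been born and have reached their layers by the first postnatal week, but axons and dendrites still grow, synapses are few and myelin has hardly begun to form. Over the following weeks glial cells multiply and mature, oligodendrocytes wrap axons, synapses form and are pruned, and subunits of receptors and channels are exchanged for adult ones. Parvalbumin interneurons gain their adult firing and their extracellular coats late in this time, when sensory critical periods close.

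All 8 libraries had the defining genes of cortex. *Tbr1*, a transcription factor of deep-layer neurons, had 3914 ± 197 normalized counts at PWK 1 and 5024 ± 379 at PWK 7 (mean ± SD, n = 4 at each age, as for all means here), and *Emx1*, of excitatory cortical lineages, had 469.7 ± 105 and 465 ± 69.0. A normalized count is the deposited value, an estimated read count divided by factors for differences between libraries in size and transcript length. It is not a count per kilobase, so it does not compare the levels of different genes. Libraries correlated at r = 0.984 to 0.988 within PWK 1, 0.985 to 0.987 within PWK 7 and 0.936 to 0.945 between the ages, over genes. The first principal component, with 70.3% of the variance, separated the ages. The second, with 6.29%, set replicate 1 of PWK 1 apart, and the summed count of 13 genes of striatal neurons was 21326 in that library against 6207 to 6806 in the other 3 of its age and 7919 to 11058 at PWK 7. Replicate 1 of PWK 7 had a summed count of 1325 over 10 genes of choroid plexus and ependyma against 389 to 419.5 in the others of PWK 7. Named genes whose call turned on either library are given with and without it. Without replicate 1 of PWK 1, the striatal list went from 2 risen and 3 fallen genes to 6 and 3, and the choroid list from 1 and 1 to 5 and 1, whereas no count of risen or fallen genes in the 36 other lists changed by more than 3.

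**Figure D1:**
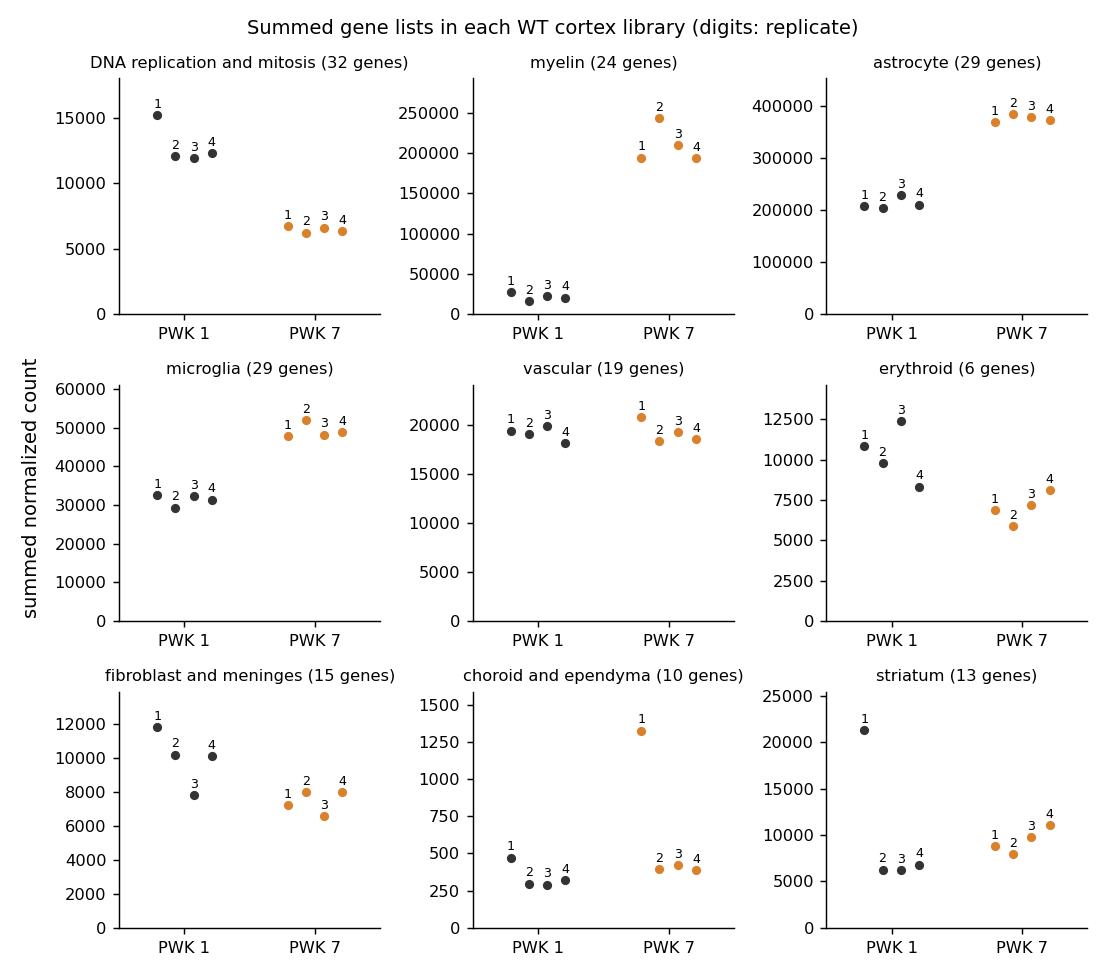
Summed normalized counts (vertical axes, from 0) of 9 gene lists in each of the 8 WT cortex libraries, with the replicate number above each point. The myelin sum was 16725 to 27428 at PWK 1 and 193925 to 242931 at PWK 7, and replicate 1 stood apart for the striatal list at PWK 1 and for the choroid list at PWK 7.

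Of 18378 genes tested, 5979 (32.5%) were higher and 6013 (32.7%) lower at PWK 7, by limma's moderated test with Benjamini-Hochberg adjusted p under 0.05. A gene is said below to have risen or fallen only if it passed this test. A change of at least 2-fold on top was found for 2086 higher genes (11.4%) and 1666 lower genes (9.07%), and of at least 4-fold for 576 and 457. For 10969 genes (59.7%) all 4 libraries of one age lay above all 4 of the other. The median log2 fold change over all genes tested was 0.01, and the median size of the change among the genes that passed was 0.66. Fold changes are on the log2(normalized count + 1) scale, which understates those of weakly expressed genes. Since most genes passed, the 38 gene lists described below are given with their direction and size rather than with their number of changed genes alone. Counts of risen and fallen genes near the shares of all genes tested, 32.5% and 32.7%, are no result about a list. In whole tissue, fewer cells of a type and less RNA per cell cannot be told apart.

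**Figure D2:**
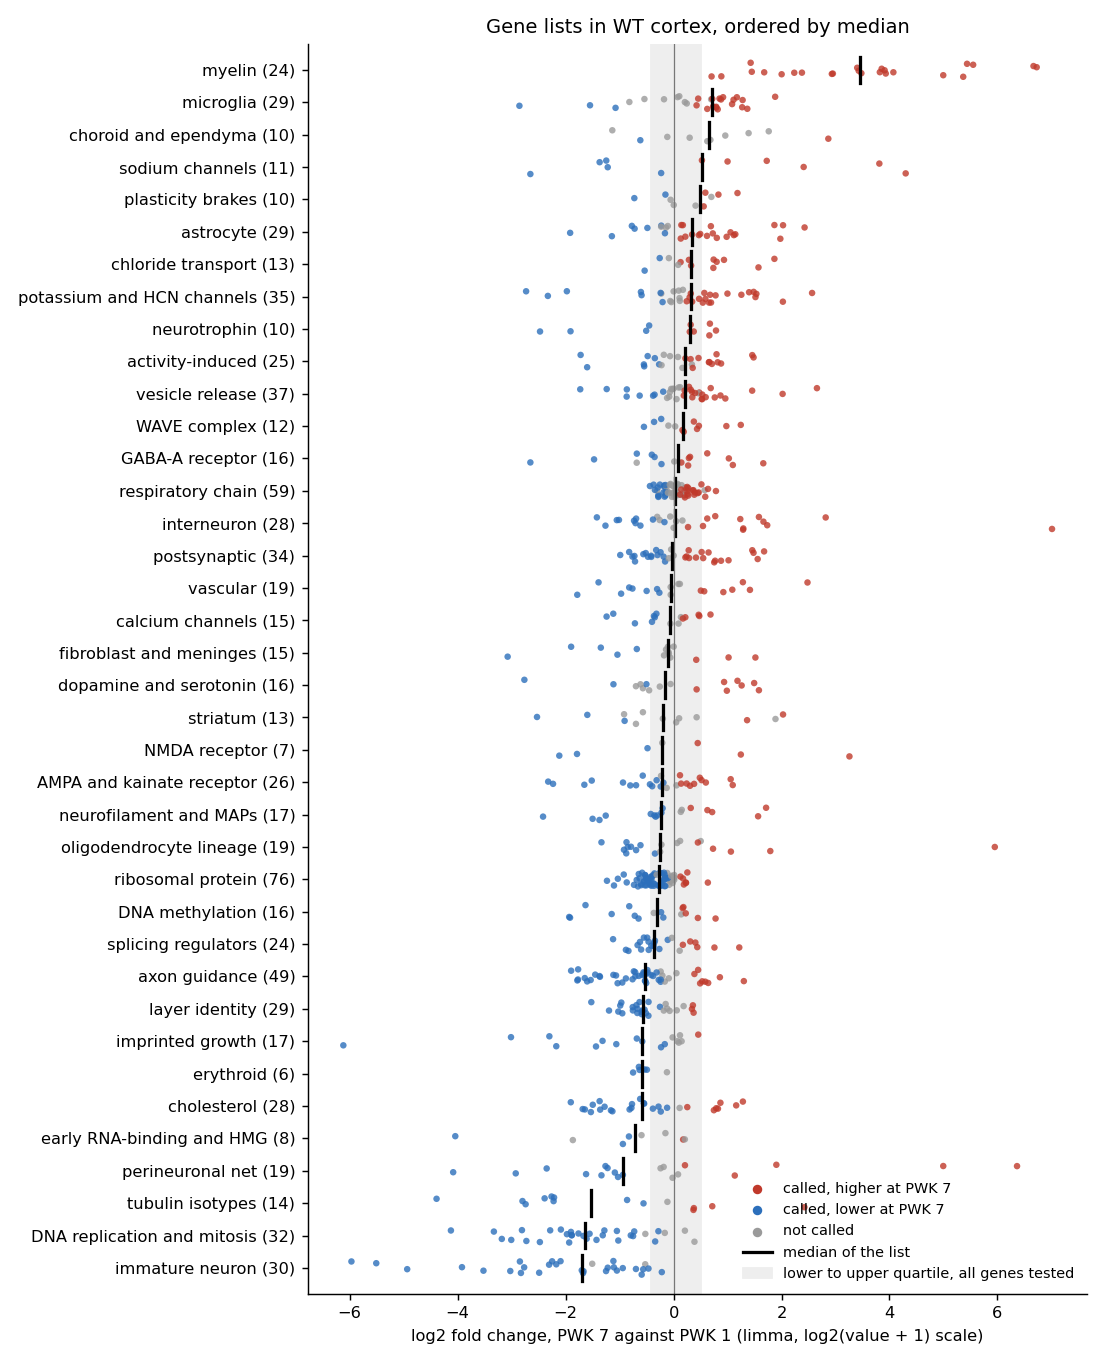
Log2 fold change between PWK 7 and PWK 1 in WT cortex (horizontal axis) for each tested member of 38 gene lists, one row per list with the number of members in brackets. Points are genes, black bars are list medians, and the grey band runs from the lower to the upper quartile of all genes tested. The myelin list lay highest, with a median of 3.46, and the immature neuron list lowest, with -1.69.

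Genes of DNA replication and mitosis were lower at PWK 7. Of 32 tested, 28 fell, 0 rose and the median log2 fold change was -1.64. *Cdk1*, the kinase that drives entry into mitosis, had 183, 124, 153 and 135 at PWK 1 and 5.63, 5.61, 4.51 and 20.5 at PWK 7, in the order of replicates 1 to 4. No PWK 7 library came near a PWK 1 library, although replicate 4 of PWK 7 stood above the other 3 (log2 fold change -4.12 ± 0.38, adjusted p = 1.29e-06). *Mki67*, a nuclear protein of dividing cells, had 1078, 667, 720.2 and 693 at PWK 1 and 100.2, 82.9, 90.5 and 110.3 at PWK 7 (log2 fold change -3.01 ± 0.15, adjusted p = 7.78e-09). *Top2a*, the topoisomerase that untangles replicated DNA, had 859, 525, 474 and 518 at PWK 1 and 109, 93.5, 80.4 and 53.6 at PWK 7 (log2 fold change -2.81 ± 0.22, adjusted p = 3.96e-07). Replicate 1 was the highest of the PWK 1 libraries for all 3 genes. Falls were smaller among the genes of the replication fork and of the G1 phase. *Mcm3*, of the replicative helicase, went from 167 ± 31.5 to 82.3 ± 28.0, *Ccnd2*, cyclin D2, from 4156 ± 438 to 2463 ± 125, and *Pcna*, the polymerase clamp, from 1181 ± 70.3 to 932 ± 56.7 (-1.05, -0.75 and -0.34 on the log2 scale). The members that did not pass were *Bub1b*, *Mcm4*, *E2f1* and *Ccne2*, at -0.52, -0.16, 0.21 and 0.39, and *Ccne2* passed without replicate 1 of PWK 1 (0.48, adjusted p = 0.0243).

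Promoters of *Cdk1*, *Mki67* and *Top2a*, core genes of this list picked for holding both motifs below, are printed here from RefSeq (GRCm38.p6). Each is given as the 250 bases before the annotated start on the minus strand, 5′ to 3′. Capitals mark the CCAAT box bound by NF-Y, which reads as ATTGG on the other strand, and the cell cycle homology region, searched as TTTGAA on either strand and as its palindromic variant, spelled TTCGAA.
Cdk1 promoter, chr10:69352913-69353162: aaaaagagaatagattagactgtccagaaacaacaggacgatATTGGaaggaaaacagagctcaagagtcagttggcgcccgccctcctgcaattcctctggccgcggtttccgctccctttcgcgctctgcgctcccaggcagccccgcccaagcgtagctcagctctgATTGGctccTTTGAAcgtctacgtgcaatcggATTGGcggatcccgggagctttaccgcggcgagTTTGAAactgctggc
Mki67 promoter, chr7:135716380-135716629: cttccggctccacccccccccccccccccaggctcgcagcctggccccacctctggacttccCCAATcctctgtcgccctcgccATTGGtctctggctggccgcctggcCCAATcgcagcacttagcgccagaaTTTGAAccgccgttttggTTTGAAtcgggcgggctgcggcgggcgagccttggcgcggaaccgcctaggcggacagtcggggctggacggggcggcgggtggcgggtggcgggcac
Top2a promoter, chr11:99024190-99024439: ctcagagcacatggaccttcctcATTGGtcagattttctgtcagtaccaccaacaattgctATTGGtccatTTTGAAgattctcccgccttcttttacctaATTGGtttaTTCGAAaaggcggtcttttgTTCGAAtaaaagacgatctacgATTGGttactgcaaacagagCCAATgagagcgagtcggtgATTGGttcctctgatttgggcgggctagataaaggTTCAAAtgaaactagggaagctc
All 3 held at least 3 CCAAT boxes and at least 2 homology regions in the bases shown. They were picked for these motifs, so this is no result. Among other core genes of the list, *Ccnb1*, *Mcm3* and *Pcna* had 2, 3 and 1 CCAAT boxes and 0 homology regions. Both motifs were searched on both strands in 300-base windows (250 bases before and 50 after the start). They shared bases in 21 of 16485 windows. A CCAAT box was present in 85.7% of the 28 windows of the 26 proliferation genes that the RefSeq table held, against 37.3% of all 16485 windows of 12921 tested genes, a homology region in 50% against 14.1%, and both in 50% against 5.71%. A CCAAT box was also in 70.4% of the windows of cholesterol genes, 56.0% of those of myelin genes, which rose, 53.1% of those of immature neuron genes and 31.8% of those of ribosomal protein genes, and both motifs were in 7.41%, 8.0%, 9.38% and 0% of these. A match in these windows is a description of the letters and not of binding.

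Genes of immature and migrating neurons had the lowest median of the 38 lists. Of 30 tested, 0 rose and 28 fell, with a median log2 fold change of -1.69. *Cd24a*, a surface glycoprotein of young neurons, had 8564, 12286, 10397 and 11634 at PWK 1 and 153, 174, 182 and 167 at PWK 7 (log2 fold change -5.97 ± 0.10, adjusted p = 6.5e-12). *Dpysl3*, a collapsin response mediator protein of growth cones, had 57522, 80484, 63345 and 75255 at PWK 1 and 1439, 1629, 1498 and 1461 at PWK 7 (log2 fold change -5.51 ± 0.09, adjusted p = 6.5e-12). *Dcx*, doublecortin, the microtubule protein of migrating neurons, had 14332, 18760.4, 13837 and 18223 at PWK 1 and 2186, 2192, 2341 and 2253 at PWK 7 (log2 fold change -2.85 ± 0.09, adjusted p = 2.41e-10). The ages were far apart for all 3 genes, and at PWK 7 the 4 libraries of each lay close together. *Gap43*, a growth cone protein, fell from 29656 ± 2659.5 to 4343 ± 166 and *Marcksl1*, an actin regulator, from 22449 ± 1637 to 1951 ± 118. The transcription factors *Sox11* and *Sox4*, which promote neuronal differentiation, fell by similar amounts (-2.25 and -2.31 on the log2 scale). *Igfbpl1*, a marker of neuroblasts, did not pass, with 351, 32.3, 31.9 and 64 at PWK 1 and 19.3, 14.8, 48.8 and 23.0 at PWK 7. Its level in replicate 1 of PWK 1 was 351 against 31.9 to 64 in the others, and without that library its log2 fold change went from -1.51 to -0.73.

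Tubulin isotypes moved apart. Among 14 isotypes, 4 rose and 9 fell. *Tubb2b*, a beta tubulin needed for neuronal migration, had 49652, 64424, 52677 and 63165 at PWK 1 and 2538, 2562, 2779 and 3037 at PWK 7 (log2 fold change -4.39 ± 0.09, adjusted p = 1.15e-11). *Tubb4a*, a beta tubulin of mature neurons and oligodendrocytes, had 15965, 17397, 19831 and 18161 at PWK 1 and 21101, 23969, 23034 and 24365 at PWK 7 (log2 fold change 0.38 ± 0.07, adjusted p = 0.00036). The mean of *Tubb2b* was 21.1-fold lower and that of *Tubb4a* 1.3-fold higher at PWK 7, and neither gene's ages overlapped. Per kilobase of the longest annotated transcript, *Tubb2b* went from 20.6% ± 1.41 to 3.63% ± 0.179 of the 7 beta tubulins listed and *Tubb4a* from 6.29% ± 0.494 to 30.1% ± 0.884. *Tubb3*, the neuronal class III isotype, fell from 43908 ± 3903 to 9139.7 ± 485 but held 18.4% and then 14.2% of the family. Among alpha tubulins, *Tuba1a*, the main isotype of developing neurons, fell from 196407 ± 16815 to 28149 ± 953, and *Tuba4a* rose from 8733 ± 958 to 14331 ± 1128. The ratio of *Tuba4a* to *Tuba1a* went from 0.0447 ± 0.00607 to 0.509 ± 0.0249, an 11.4-fold shift. Reads of near-identical isotypes may be divided between them, so single isotype levels are less certain than their sum.

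The cytoskeletal genes of axons changed less evenly. Of 17 genes of neurofilaments and microtubule-associated proteins, 5 rose and 10 fell. *Map1b* and *Mapt* (tau), which bind microtubules in growing axons, fell by 1.50 and 1.37 on the log2 scale, whereas *Map1a*, the adult counterpart of *Map1b*, rose from 27149.6 ± 2026 to 44533 ± 2487 (0.71). *Kif5a*, a motor of axonal transport, rose from 36267 ± 1979 to 107519 ± 9139 (1.57). The neurofilament subunits differed: *Nefh*, the heavy chain, rose by 0.32, while *Nefl* and *Nefm* did not pass (adjusted p = 0.137 and 0.232).

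Of 49 axon guidance genes, 8 rose and 36 fell, with a median of -0.53. *Chl1*, a cell adhesion molecule, *Ephb2*, an ephrin receptor, and *Plxna1*, a semaphorin coreceptor, fell most (-1.90, -1.78 and -1.77). *Robo1*, a Slit receptor, went from 4459 ± 89.8 to 1733 ± 227, and *Dcc*, a netrin receptor, from 1485 ± 127 to 878 ± 90.4 (-1.37 and -0.76). The largest rise was that of *Unc5b*, another netrin receptor, from 304 ± 45.6 to 748 ± 61.3 (1.30).

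Among genes of early developmental stages, *H19*, an imprinted noncoding RNA of fetal tissues, had 238, 294, 102 and 358 at PWK 1 and 5.54, 2.62, 0 and 3.71 at PWK 7, and one PWK 7 library was listed at 0 (log2 fold change -6.12 ± 0.55, adjusted p = 1.07e-06). *Igf2*, its imprinted neighbour and a fetal growth factor, had 5899, 5896, 4249 and 4889.8 at PWK 1 and 2254, 2100.2, 1469.8 and 1927 at PWK 7 (log2 fold change -1.44 ± 0.13, adjusted p = 1.39e-06). Of 17 imprinted genes, 1 rose and 11 fell. *Plagl1* and *Dlk1* did not pass, at 0.10 and 0.15. The one that rose was *Peg3*, from 11289 ± 171 to 15496 ± 474. *Igf2bp3*, a fetal RNA-binding protein, had 62.8, 67.5, 52.8 and 66.5 at PWK 1 and 1.03, 3.19, 8.21 and 1.74 at PWK 7 (log2 fold change -4.04 ± 0.42, adjusted p = 3.76e-06). In the same list of 8 early-stage RNA-binding and high mobility group genes, *Igf2bp1* did not pass at means of 19.3 and 7.72, and *Lin28b* went from 234 ± 81.1 to 259.6 ± 14.4 without passing, but passed without replicate 1 of PWK 1 (0.42, adjusted p = 0.0171). Replicate 3 of PWK 7 had 27.6 for *Igf2bp1* against 0 to 2.00 in the others, and without it the gene passed (-2.84, adjusted p = 0.00902).

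DNA methyltransferases fell. *Dnmt3a*, which lays down neuronal non-CG methylation after birth, had 14904, 14581, 14450.1 and 14656 at PWK 1 and 3909, 3938, 3960.3 and 3697 at PWK 7 (log2 fold change -1.92 ± 0.04, adjusted p = 1.13e-11). Its mean was 3.78-fold lower at PWK 7, with the 4 libraries of each age close together. *Dnmt1*, the maintenance enzyme, fell from 2782 ± 145 to 1773 ± 79.5 and *Tet1*, a 5-methylcytosine oxidase, from 1961 ± 48.7 to 633 ± 50.4. Of the 16 genes of this list, 5 rose and 9 fell. Among 24 neuronal splicing regulators, 6 rose and 16 fell: *Ptbp2*, which holds back adult exons in young neurons, fell from 4612 ± 75.4 to 2995 ± 63.9 (-0.62), and *Mbnl2*, a regulator of adult splicing, rose from 3077 ± 196 to 7147 ± 319 (1.22).

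All 24 genes of myelin proteins and myelin lipid enzymes rose, 22 of them at least 2-fold, with a median log2 fold change of 3.46. *Mbp*, myelin basic protein, had 8165, 3369, 6030.2 and 4892 at PWK 1 and 69992, 89413, 74634 and 69349 at PWK 7 (log2 fold change 3.82 ± 0.20, adjusted p = 1.39e-08). *Mal*, a proteolipid of compact myelin, had 109.8, 70.1, 89.8 and 60.8 at PWK 1 and 7970.5, 10332, 9010.5 and 7500.4 at PWK 7 (log2 fold change 6.73 ± 0.16, adjusted p = 3.46e-11). *Opalin*, of the oligodendrocyte paranodal loops, had 6.43, 2.07, 8.93 and 5.66 at PWK 1 and 624, 703, 615 and 594 at PWK 7 (log2 fold change 6.67 ± 0.30, adjusted p = 2.85e-09). Within PWK 1, replicate 1 was the highest and replicate 2 the lowest of the 4 libraries for *Mbp*, and all PWK 7 libraries stood far above both. *Mog* and *Mag*, encoding a pair of surface glycoproteins of myelin, rose by 5.55 and 3.91 on the log2 scale. *Cnp*, already present in immature oligodendrocytes, rose less, from 2448 ± 469 to 9715 ± 1045 (2.00).

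Of 19 genes of the oligodendrocyte lineage, 5 rose, 3 of them at least 2-fold, and 9 fell, 1 of them at least 2-fold. Among all genes tested 32.5% rose and 32.7% fell. The largest rises were those of *Nkx6-2*, *Bcas1* and *Gpr37l1*, and the largest falls those of *Ptprz1*, *Gpr17* and *Pdgfra*. *Pdgfra*, the growth factor receptor of precursors, had 4158, 4116, 3929 and 4439.9 at PWK 1 and 2157, 2372, 2283 and 2246 at PWK 7 (log2 fold change -0.88 ± 0.05, adjusted p = 1.73e-08). *Cspg4* (NG2) fell from 1351 ± 85.1 to 834 ± 44.4, and *Gpr17*, of committed precursors, from 4328 ± 856 to 2258 ± 73.9. *Enpp6*, of newly forming oligodendrocytes, did not pass, from 306 ± 103 to 416 ± 51.3 (adjusted p = 0.0543), and passed without replicate 1 of PWK 1 (0.68, adjusted p = 0.00685). *Nkx6-2*, a homeobox factor of myelinating cells, rose from 3.26 ± 2.94 to 207 ± 23.9 (5.95).

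**Figure D3:**
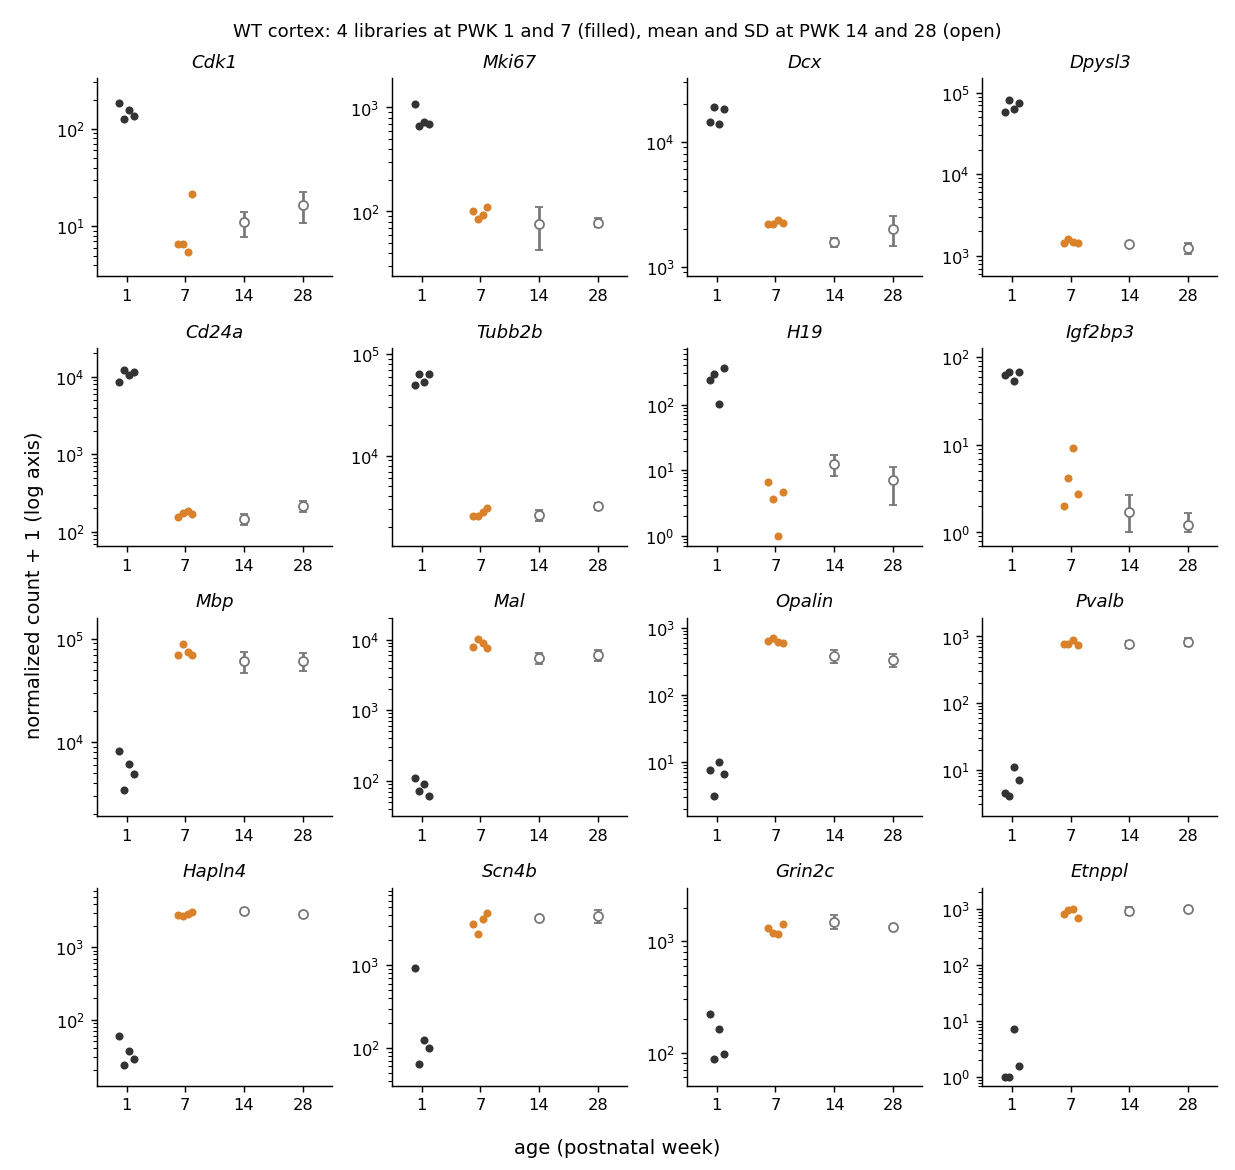
Normalized counts plus 1 (vertical axes, log scale) of 16 genes in WT cortex by age in postnatal weeks. Filled points are the 4 libraries at PWK 1 and PWK 7, and open points with bars are mean and SD (n = 4) at PWK 14 and PWK 28. The ages PWK 1 and PWK 7 do not overlap for any of the 16 genes.

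Most genes of cholesterol synthesis fell. Of 28 genes of cholesterol synthesis, turnover and efflux, 7 rose and 20 fell. *Hmgcs1*, a synthase at the start of the pathway, had 29774, 32866, 33410.1 and 34402 at PWK 1 and 8496, 8431, 8625 and 9265 at PWK 7 (log2 fold change -1.90 ± 0.05, adjusted p = 8.38e-11), and the ages did not overlap. *Sqle*, squalene epoxidase, fell from 6024 ± 237 to 1874 ± 72.2. The genes that rose included *Cyp46a1*, the neuronal hydroxylase that removes cholesterol from the brain, from 2540.5 ± 111 to 5678 ± 200.3 (1.16), and *Abcg1*, a sterol exporter (1.28).

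Of 29 astrocyte genes, 19 rose and 7 fell. *Slc1a2*, the main glutamate transporter (GLT-1), had 56470.2, 54670.4, 71274 and 60232 at PWK 1 and 122679, 125658, 128045 and 125066 at PWK 7 (log2 fold change 1.05 ± 0.07, adjusted p = 1.4e-07). *Aldoc*, an aldolase of astrocytes, rose from 6335 ± 529.8 to 23075 ± 897, and *Gjb6*, connexin 30, from 388 ± 52.8 to 1525 ± 117 (1.87 and 1.98). *Gja1*, connexin 43, which appears earlier, rose by 0.13, a call lost when any of 6 libraries was left out (0.10 to 0.15 then). *Aqp4*, the water channel of endfeet, fell, with 5409.7, 5349, 5920.2 and 5924 at PWK 1 and 3323, 3474, 3101 and 3323 at PWK 7 (log2 fold change -0.77 ± 0.05, adjusted p = 7.47e-08). *Gfap* did not pass, from 3408 ± 185 to 3196 ± 579 (adjusted p = 0.364), and passed without replicate 2 of PWK 7 (-0.22, adjusted p = 0.00808), whereas *Nes* and *Thbs1*, an intermediate filament of precursors and a secreted synapse-inducing protein, fell by 1.14 and 1.92. Astrocyte members thus went in both directions within one list.

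Of 29 microglial genes, 18 rose and 3 fell. *Tmem119* and *P2ry12*, markers of homeostatic microglia, rose from 310.1 ± 19.7 to 700.3 ± 38.5 and from 937 ± 116 to 1532 ± 27.5. *C1qa*, of the complement component that tags synapses, had 545, 405, 548 and 498 at PWK 1 and 972, 1227, 1142 and 966 at PWK 7 (log2 fold change 1.11 ± 0.11, adjusted p = 2.19e-06), and its ages did not overlap. Those that fell were *Lpl*, *Igf1* and *Itgax* (-2.86, -1.55 and -1.07), which are known from microglia of early postnatal white matter. The call of *Itgax* was lost in one fit of all 64 libraries (adjusted p = 0.0613). *Lpl* and *Igf1* are also transcribed in neurons.

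NMDA receptor subunits were exchanged. *Grin2b*, the GluN2B subunit of young synapses, had 23466, 26889, 27674 and 27560.3 at PWK 1 and 19829, 17803, 18419 and 19396 at PWK 7 (log2 fold change -0.48 ± 0.06, adjusted p = 1.63e-05), and *Grin2a*, the adult GluN2A subunit, had 2864, 3054, 4230.2 and 3619 at PWK 1 and 8481, 7854, 7864 and 8106 at PWK 7 (log2 fold change 1.25 ± 0.10, adjusted p = 3.77e-07). Their ratio went from 0.13 ± 0.0169 to 0.428 ± 0.00957, a 3.32-fold shift (two-sided exact permutation test, p = 0.0286, the smallest that 4 against 4 libraries allow, and 0.0327 after adjustment over 16 ratios). *Grin2d*, another early subunit, had 1778, 2124, 1946 and 2014 at PWK 1 and 468, 482, 444 and 415 at PWK 7 (log2 fold change -2.12 ± 0.07, adjusted p = 2.82e-10). *Grin2c* had the largest rise in the family, from 142 ± 63.0 to 1270.1 ± 119.8 (3.26). *Grin3a*, a subunit that limits synapse maturation, fell from 5102 ± 534 to 1472 ± 112, and *Grin1*, the obligatory subunit, rose by 0.45. Per kilobase, *Grin2b* remained the largest part of the 4 GluN2 genes, from 63.7% ± 0.781 to 46.7% ± 0.527, while *Grin2a* went from 13.6% ± 1.65 to 32.9% ± 0.567 and *Grin2d* from 21% ± 1.23 to 4.97% ± 0.449.

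Of 26 AMPA and kainate receptor genes, 10 rose and 13 fell, beside 32.5% and 32.7% of all genes tested. *Gria3* rose from 5142 ± 426 to 10969.8 ± 286 (1.10), more than *Gria2*, *Gria4* or *Gria1* (0.24, 0.49 and 0.12). The call of *Gria1* was lost when any of 7 libraries was left out. The falls were led by auxiliary subunits: *Shisa6* and *Cacng4*, which bind AMPA receptors, and *Neto2*, which binds kainate receptors, changed by -2.32, -2.23 and -1.65.

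Of 16 genes of the GABA-A receptor and its anchors, 8 rose and 6 fell, beside 32.5% and 32.7% of all genes tested. *Gabra5*, an early and extrasynaptic subunit, had 4227, 5007, 4974 and 5107 at PWK 1 and 1699.5, 1822, 1638 and 1780.3 at PWK 7 (log2 fold change -1.47 ± 0.06, adjusted p = 2.02e-09). Per kilobase, *Gabra5* went from 31.9% ± 1.45 to 10.1% ± 0.783 of the 5 alpha subunits. *Gabrd*, of tonic inhibition, rose from 578 ± 83.1 to 1825 ± 185, and *Gabrq*, of the early theta subunit, fell from 162 ± 14.2 to 25.4 ± 6.95. Both chloride carriers that set the direction of the GABA current rose. *Slc12a5* (KCC2), which extrudes chloride, had 10239, 10486, 11603 and 11206 at PWK 1 and 18573, 17728, 18192 and 17969.6 at PWK 7 (log2 fold change 0.74 ± 0.05, adjusted p = 4.87e-08), and *Slc12a2* (NKCC1), which imports it, had 1712, 1671, 1580.0 and 1751 at PWK 1 and 2779, 3024, 2688 and 2747 at PWK 7 (log2 fold change 0.74 ± 0.05, adjusted p = 1.11e-07). Neither carrier had an overlap between the ages. Their ratio was 6.5 ± 0.59 at PWK 1 and 6.46 ± 0.412 at PWK 7 (exact permutation p = 0.971). *Slc12a2* is also transcribed in oligodendrocyte lineage cells, whose myelin sum rose, and the part of each cell type in the ratio was not tested. *Car7* and *Car2*, carbonic anhydrases that supply bicarbonate, rose by 1.57 and 1.87.

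**Figure D4:**
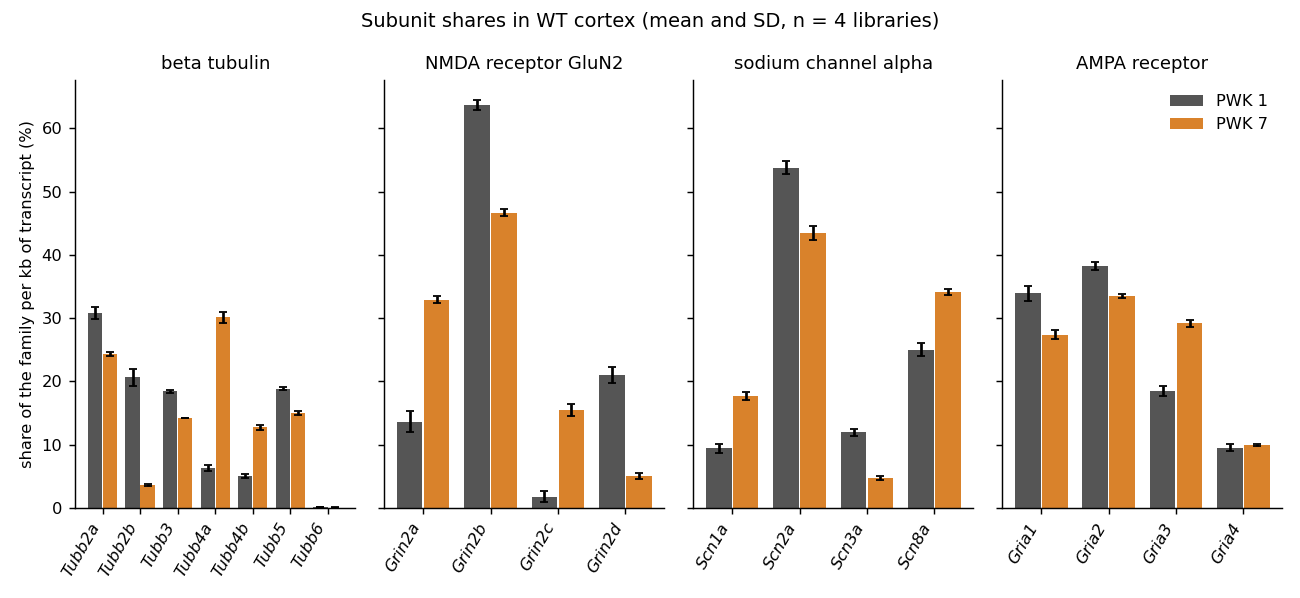
Share of each subunit in the summed normalized count per kilobase of its family (vertical axis, %, from 0) in WT cortex at PWK 1 and PWK 7, as mean and SD of 4 libraries. *Tubb4a*, *Grin2a*, *Scn1a*, *Scn8a* and *Gria3* took larger shares at PWK 7, and *Tubb2b*, *Grin2d* and *Scn3a* smaller ones.

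All 11 sodium channel genes passed, 6 higher and 5 lower. *Scn3a*, the embryonic Nav1.3, fell from 4041 ± 82.0 to 1704 ± 114 (-1.25), *Scn1a*, the Nav1.1 of interneurons, rose from 2801 ± 247 to 5591 ± 288 (1.00), and *Scn8a*, the Nav1.6 of mature axon initial segments, from 10175 ± 511 to 14639.5 ± 566 (0.53). The ratio of *Scn1a* to *Scn3a* went from 0.693 ± 0.047 to 3.29 ± 0.225. Beta subunits were exchanged too. *Scn4b* had 935, 63.7, 126 and 98.9 at PWK 1 and 3111, 2386, 3612 and 4298 at PWK 7 (log2 fold change 4.30 ± 0.63, adjusted p = 7.65e-05). Replicate 1 of PWK 1, the library with the high striatal sum, held 935, and without it the log2 fold change was 5.13. *Scn3b* fell from 7771 ± 466 to 3340.1 ± 299 (-1.22).

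Of 35 potassium and HCN channel genes, 20 rose and 7 fell. *Kcnc1*, the Kv3.1 channel of fast-spiking cells, had 2333, 2257, 2315 and 2403 at PWK 1 and 6595, 6321, 6518 and 6582 at PWK 7 (log2 fold change 1.48 ± 0.04, adjusted p = 6.33e-11), and *Kcna1* and *Kcna2*, the Kv1 channels beside the nodes of Ranvier, rose by 1.52 and 1.53. *Hcn4* and *Hcn3*, pacemaker channels, fell from 1013 ± 108 to 152 ± 13.9 and from 1755 ± 164 to 445 ± 36.0. *Kcnq3*, of the M-current, fell by 0.59. Among 15 calcium channel genes, 5 rose and 7 fell, beside 32.5% and 32.7% of all genes tested. The T-type channels *Cacna1g* and *Cacna1h* fell most (-1.12 and -1.24), and the beta subunit *Cacnb4* rose most (0.68).

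Presynaptic genes rose more often than they fell, with 19 and 8 of 37. *Snap25*, a core fusion protein, had 23235, 27249.6, 29624 and 28119 at PWK 1 and 75181, 71011, 73818 and 75745 at PWK 7 (log2 fold change 1.46 ± 0.07, adjusted p = 4.13e-09). *Vamp1*, a vesicle SNARE of fast synapses, rose from 569 ± 66.2 to 3576 ± 184 (2.66), while *Vamp2*, its paralog, averaged 31828 and 30804 on average and did not pass (adjusted p = 0.46). *Slc17a7* (VGLUT1), the vesicular glutamate transporter of the adult cortex, rose from 25604 ± 2725 to 43299 ± 1039, and *Slc17a6* (VGLUT2) fell from 1107 ± 102 to 335 ± 46.7, so that their ratio went from 23.3 ± 3.86 to 131 ± 17.8. *Syp*, synaptophysin, often used as a measure of synapse number, rose by 0.20.

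Of 34 postsynaptic genes, 16 rose and 15 fell, beside 32.5% and 32.7% of all genes tested. *Camk2a*, the alpha subunit of the kinase of long-term potentiation, had 37531, 35918, 48432 and 38605 at PWK 1 and 129138, 118894, 132762 and 129375 at PWK 7 (log2 fold change 1.68 ± 0.08, adjusted p = 7.75e-09), and *Camk2b*, the beta subunit of young neurons, fell from 34089.9 ± 1326 to 23853 ± 628 (-0.52). The ratio of alpha to beta went from 1.18 ± 0.149 to 5.35 ± 0.221. *Dlgap1* and *Kalrn*, a scaffold and a spine exchange factor, rose by 1.56 and 1.48. *Dlg4* (PSD-95) and *Shank3*, main scaffolds of the density, did not pass, from 24780.4 ± 1969.6 to 23267 ± 1074 and from 7093 ± 212 to 7117 ± 527 (adjusted p = 0.201 and 0.972). The ratio of *Dlg4* to *Dlg3* (SAP102) was 3.62 and 3.79 (exact permutation p = 0.257).

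*Pvalb*, the calcium buffer of fast-spiking interneurons, had 3.51, 2.97, 9.86 and 6.05 at PWK 1 and 774, 759.9, 872 and 736 at PWK 7, the fourth largest rise among well expressed genes (log2 fold change 7.01 ± 0.27, adjusted p = 1.08e-09). Every PWK 1 library was below 10 and every PWK 7 library above 700. *Gad1* and *Gad2*, which make GABA, rose from 3472 ± 616 to 8391 ± 95.9 and from 3158 ± 836 to 4754 ± 174. *Vip* and *Sst*, neuropeptides of other interneuron classes, rose by 1.74 and 0.55, and *Lamp5*, of neurogliaform cells and also of excitatory neurons, by 2.82. *Lhx6*, a transcription factor of interneurons from the medial ganglionic eminence, fell from 944 ± 63.9 to 454 ± 17.9 (-1.05), and *Reln*, reelin, from 7555 ± 968 to 2811 ± 238 (-1.42). In all, 12 of 28 interneuron genes rose and 10 fell, beside 32.5% and 32.7% of all genes tested.

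Perineuronal net genes moved apart. *Hapln4*, the link protein of adult nets and nodes, had 58.1, 22.4, 36.2 and 27.8 at PWK 1 and 2832, 2713, 2901 and 3043 at PWK 7 (log2 fold change 6.36 ± 0.22, adjusted p = 4.42e-10). *Hapln1*, another link protein, fell from 1579 ± 131 to 825 ± 95.2, and the ratio of *Hapln4* to *Hapln1* shifted 163-fold. *Hapln2*, also a link protein, had the largest rise of this list after *Hapln4*. *Tnc*, tenascin C of the juvenile matrix, had 2149.6, 2172, 2277 and 2416 at PWK 1 and 139.7, 153, 95.1 and 149 at PWK 7 (log2 fold change -4.08 ± 0.13, adjusted p = 2.41e-10). *Vcan* and *Ncan*, proteoglycans of the juvenile matrix, fell by 1.62 and 1.22. *Acan*, aggrecan, the proteoglycan that defines adult nets, did not pass, with 98.6, 122, 137 and 128 at PWK 1 and 104, 87.2, 130.4 and 91.3 at PWK 7 (adjusted p = 0.203). The ages overlapped for *Acan*, and *Tnr*, tenascin R, did not pass either (-0.02, adjusted p = 0.737).

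Layer identity factors fell by modest amounts, 20 of 29 against 3 risen, with a median of -0.57. *Bcl11b* (CTIP2) and *Fezf2*, of subcerebral neurons, fell from 3582 ± 864 to 1780.2 ± 212 and from 1432 ± 147 to 847 ± 71.0. Without replicate 1 of PWK 1, the library with the high striatal sum, *Bcl11b* changed by -0.83 rather than -0.99 and still passed. The 3 that rose, *Cux2*, *Tbr1* and *Rorb*, changed by 0.37, 0.36 and 0.34, and the call of *Rorb* was lost when any of 5 libraries was left out (0.24 to 0.32 then).

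Of 25 activity-induced genes, 12 rose and 7 fell, beside 32.5% and 32.7% of all genes tested. *Arc*, an effector of synaptic scaling, had 694, 442, 591 and 438 at PWK 1 and 1306, 1066, 1487 and 2197 at PWK 7 (log2 fold change 1.46 ± 0.20, adjusted p = 4.84e-05). *Fosb* and *Nr4a1* rose by 1.48 and 0.80, and *Bdnf* by 0.66. The call of *Nr4a1* was lost in one fit of all 64 libraries (adjusted p = 0.147). *Fos* and *Npas4* did not pass (adjusted p = 0.496 and 0.102). *Npas4* passed without replicate 1 of PWK 1 (0.45, adjusted p = 0.0355) and without replicate 1 of PWK 7 (0.48, adjusted p = 0.0202). *Egr2* and *Nr4a3* fell from 145 ± 39.7 to 46.1 ± 23.7 and from 1472 ± 264 to 488 ± 105, and the call of *Egr2* was lost in the fit of all 64 libraries (adjusted p = 0.0529). *Arc* went on to 5492 ± 1502 at PWK 14 and 11499 ± 1183 at PWK 28, both above its PWK 7 level. These genes are known to respond quickly to handling and light, and neither was measured.

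Of 10 genes studied as limits on adult plasticity, 4 rose and 2 fell, beside 32.5% and 32.7% of all genes tested. So few genes give no result about the list. *Lynx1*, a brake on nicotinic receptors, had 5874, 4686, 6798 and 5895 at PWK 1 and 12744, 12225, 13695 and 13772 at PWK 7 (log2 fold change 1.18 ± 0.09, adjusted p = 2.96e-07), and *Rtn4r*, the Nogo receptor, rose from 1339.8 ± 167 to 2369.7 ± 87.4 (0.83). All 10 neurotrophin genes passed, 6 higher and 4 lower. *Ntf3*, neurotrophin 3, fell from 148 ± 27.0 to 26.1 ± 5.97 (-2.47), while the receptors *Ntrk2* and *Ntrk3* rose by 0.32 and 0.37. Among 16 dopamine and serotonin receptors, 7 rose and 3 fell, beside the same shares of all genes tested. Those that rose included *Htr2a*, from 960.3 ± 166 to 1887 ± 128, and *Htr1a*, from 268 ± 97.8 to 722 ± 57.4. *Drd1* and *Drd2*, abundant in striatum, did not pass (-0.57 and -0.70), and without replicate 1 of PWK 1 they had -0.25 and -0.02. *Drd1* passed without replicate 2 of PWK 1 (-0.71, adjusted p = 0.0403).

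Of 76 cytosolic ribosomal protein genes, 7 rose and 54 fell, with a median of -0.26. *Rplp0*, of the ribosomal stalk, went from 9185 ± 308 to 3904 ± 145 (-1.23), while *Rps6* and *Rpl3* did not pass. The 59 nuclear-encoded respiratory chain genes had 20 risen and 15 fallen members, beside 32.5% and 32.7% of all genes tested, and a median of 0.03. The WAVE complex drives branched actin and holds the protein mutated in the KI mice. Of the 12 genes in its list, 7 rose and 3 fell. The largest rises were those of *Abi3*, *Cyfip2* and *Nckap1l*, and the cell types behind these counts were not tested. *Cyfip2* had 16451, 18394, 19303 and 18298 at PWK 1 and 35788, 34519, 36054 and 36129 at PWK 7 (log2 fold change 0.98 ± 0.05, adjusted p = 1.04e-08), and its paralog *Cyfip1* rose by 0.16. *Wasf1* (WAVE1) and *Abi2*, its partners in neurons, fell by 0.23 and 0.55.

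Among genes of other cell types in the dissected tissue, the blood list fell and the others had both risen and fallen members. Of all genes tested, 32.5% rose and 32.7% fell. The 6 erythroid genes summed to 8337 to 12386 at PWK 1 and 5871 to 8113 at PWK 7, and 5 of them fell, with *Hbb-bs*, a beta globin that shares reads with its near-identical neighbour, at -0.54 (a call lost in one fit of all 64 libraries, adjusted p = 0.0754). The 15 fibroblast and meningeal genes had overlapping sums, 7824 to 11837 at PWK 1 and 6614 to 8025 at PWK 7, and 3 rose and 5 fell, with a median of -0.10. *Slc47a1* and *Slc22a6*, organic ion transporters, and *Col6a1*, a collagen, rose by 1.52, 0.42 and 1.02. The call of *Slc22a6* was lost without replicate 1 of PWK 7 (0.37, adjusted p = 0.0624), without either of 2 other libraries and in one fit of all 64 libraries (adjusted p = 0.121). *Col3a1* fell from 1282 ± 459.8 to 168 ± 93.4 (-3.07) and *Col1a1* from 964 ± 171 to 259 ± 54.7 (-1.90). The 19 vascular genes had overlapping sums, 18123 to 19884 at PWK 1 and 18375 to 20776 at PWK 7. Of them 7 rose and 8 fell, near the shares of all genes tested and so no result about the list. *Slco1a4*, a transporter of the blood-brain barrier, rose from 396 ± 58.5 to 2201 ± 157, and *Slc2a1*, the glucose transporter, rose by 1.42. *Cldn5* and *Kdr*, of endothelial junctions and growth, fell by 1.39 and 1.78. *Ttr*, of choroid plexus, had 24.3, 20.6, 20.1 and 15.6 at PWK 1 and 919.5, 86.4, 75.6 and 87.1 at PWK 7, and its call (log2 fold change 2.87 ± 0.65, adjusted p = 0.00196) had a smaller size without replicate 1 of PWK 7 (2.00, adjusted p = 1.45e-05) and was lost in one fit of all 64 libraries (adjusted p = 0.0837). Of the choroid and ependymal list, 1 of 10 rose and 1 fell. Among striatal genes, *Ppp1r1b* rose by 1.36 with all libraries and by 1.99 without replicate 1 of PWK 1, its call was lost when any of 5 other libraries was left out (1.05 to 1.30 then), and *Rarb* went from 0.43, which did not pass, to 1.25, which did. The part of these other cells in the other results was not tested.

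The largest changes among protein-coding genes with a mean of at least 100 at one age included several genes outside the lists. *Etnppl*, a phospho-lyase of astrocytes (GRCm38, chr3:130617448-130637521), had 0, 0, 6.12 and 0.613 at PWK 1 and 812, 957, 984 and 699.6 at PWK 7 and the largest rise, from a level near 0 (log2 fold change 8.86 ± 0.52, adjusted p = 2.68e-08). *Igfn1* (chr1:135953578-136006342), known from muscle, had 2.84, 0, 0 and 6.80 at PWK 1 and 1123, 864, 938 and 1131 at PWK 7 (log2 fold change 8.75 ± 0.56, adjusted p = 5.61e-08). *BC030499*, *Sec14l5* and *Mei1* rose by 7.63, 5.97 and 5.61, from means of 3.35, 10.4 and 3.41. Of the 12 largest rises, *Mal*, *Opalin*, *Mog*, *Mobp* and *Nkx6-2* belonged to oligodendrocytes.

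Among the 12 largest falls, *Aplnr*, the apelin receptor of growing vessels, had 796, 837, 765 and 718 at PWK 1 and 10.6, 8.35, 15.9 and 17.6 at PWK 7 (log2 fold change -5.84 ± 0.20, adjusted p = 4.69e-10), and *Prnd*, a prion-like protein of developing vessels, had 181, 174, 187 and 199 at PWK 1 and 0, 6.00, 0 and 4.96 at PWK 7 (log2 fold change -6.20 ± 0.60, adjusted p = 2.09e-06). *Slc18a2*, the vesicular monoamine transporter, had 355, 284, 305 and 286 at PWK 1 and 4.61, 4.57, 10.5 and 1.95 at PWK 7 (log2 fold change -5.75 ± 0.34, adjusted p = 2.66e-08), and *Trpa1*, a cation channel, 163, 365, 339 and 390.1 at PWK 1 and 5.36, 10.8, 4.18 and 4.68 at PWK 7 (log2 fold change -5.45 ± 0.33, adjusted p = 3.24e-08). *St8sia2*, which adds polysialic acid to the adhesion molecule NCAM, fell from 3455 ± 981 to 137 ± 25.4 (-4.62). *Trim67*, *Rgs9bp* and the imprinted *Mkrn3* fell by 5.33, 4.63 and 4.53. *Rps12-ps3*, a ribosomal pseudogene whose reads cannot be told from those of its parent gene, was listed at 0 in all 4 PWK 7 libraries and had a mean of 183 at PWK 14, and no fold change is given for it.

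Most genes with a change of at least 2-fold stayed on the PWK 7 side at later ages. Of the 2086 genes that rose at least 2-fold, the mean at PWK 14 lay on the PWK 7 side of the midpoint between PWK 1 and PWK 7 for 1977 (94.8%) and at PWK 28 for 1945 (93.2%). For the 1666 that fell at least 2-fold these counts were 1612 (96.8%) and 1547 (92.9%). Since PWK 7 chose these genes and set the midpoint, the counts describe levels and are no test. Some myelin genes had higher means at PWK 7 than later, a difference that was not tested: *Mog* had 1688 ± 189.6 at PWK 7, 1067 ± 243 at PWK 14 and 1073 ± 231 at PWK 28, and *Mal* 8703 ± 1256, 5498 ± 1045 and 6052 ± 1057.

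In KI cortex, 12175 of 18381 genes tested (66.2%) passed between the same ages. Of the genes that passed in WT cortex 89.1% also passed in KI cortex, which was 87.7% of those of KI, and 10681 of these 10683 went the same way. Across 18361 genes the log2 fold changes had r = 0.933 and rho = 0.925 (description, since genes are not replicates). The difference between the genotypes in the age change passed for 0 of 18389 genes (0%) by limma, with 743 at an unadjusted p under 0.05. *Mbp* rose by 3.78 in KI cortex against 3.82 in WT, *Pvalb* by 6.57 against 7.01, *Dpysl3* changed by -5.57 against -5.51, and *Cdk1* by -3.76 against -4.12. Their standard errors in KI cortex were 0.17, 0.28, 0.11 and 0.44.

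In WT hippocampus 11284 of 18405 genes (61.3%) passed. Of those that passed in cortex 76.5% also passed in hippocampus, 81.4% of the hippocampal ones, and 359 of these 9165 went in opposite directions. The age change differed between the regions for 3923 of 18428 genes (21.3%), of which 1801 (45.9%) were more positive and 2122 more negative in cortex. Scaling each library to an equal total instead turned this split to 59.0% more positive, so that the balance of directions depended on scaling.

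**Figure D5:**
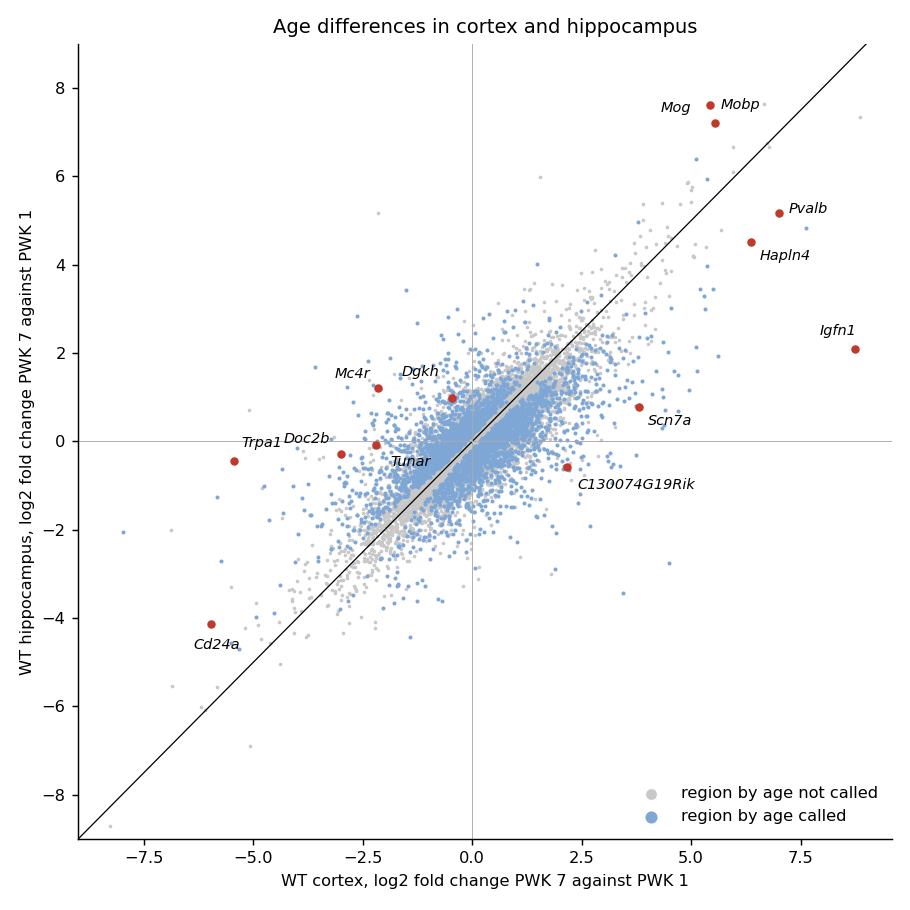
Log2 fold change between PWK 7 and PWK 1 in WT cortex (horizontal axis) and WT hippocampus (vertical axis), one point per gene tested in cortex. Blue points passed the test of region by age, red points are named genes, and the line marks equal change. *Doc2b*, *Tunar* and *Trpa1* fell in cortex with values near 0 in hippocampus, and *Mobp* and *Mog* lay above the line.

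The 5 genes with the smallest p for region by age were *Doc2b*, *C130074G19Rik*, *Tunar*, *Mc4r* and *Dgkh*. *Doc2b*, a calcium sensor of spontaneous release, had 2508, 2673, 2256 and 2419 at PWK 1 and 339, 289.7, 294 and 306 at PWK 7 in cortex and went from 3076 ± 93.7 to 2544 ± 224 in hippocampus. Its log2 fold change was -3.00 ± 0.07 in cortex and -0.28 ± 0.06 in hippocampus (difference -2.72 ± 0.09, adjusted p = 6.09e-12). *Mc4r*, the melanocortin 4 receptor, fell by 2.16 in cortex and rose by 1.20 in hippocampus (difference -3.36 ± 0.17, adjusted p = 2.01e-09). *Tunar*, a noncoding RNA gene of neural differentiation, changed by -2.20 and -0.07, *C130074G19Rik* by 2.16 and -0.58, and *Dgkh*, a diacylglycerol kinase, by -0.47 and 0.99.

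Region by age also touched genes described above. *Gabra5* fell by 1.47 in cortex and changed by -0.11 in hippocampus (adjusted p = 4.26e-09 for the difference). *Scn3b* and *Plxna4*, a semaphorin receptor, fell in cortex (-1.22 and -0.95) and had 0.14 and 0.10 in hippocampus (adjusted p = 1.93e-08 and 7.43e-08). *Camk2b* fell in cortex and rose by 0.60 in hippocampus (adjusted p = 5.95e-08). *Trpa1* had -5.45 in cortex and -0.45 in hippocampus, where its PWK 1 mean was 29.6 (adjusted p = 1.87e-07). *Igfn1* rose by 8.75 in cortex and 2.09 in hippocampus (adjusted p = 1.39e-05). Myelin genes rose in both regions, all 24 of them, and the difference passed for *Mobp* (5.44 in cortex and 7.61 in hippocampus) and in all for 3 genes that rose less and 1 that rose more in cortex. For interneuron genes the difference was more positive in cortex for 14 of 28 and more negative for 2. These counts were 11 and 0 of 19 vascular genes, 1 and 7 of 14 tubulin isotypes, and 14 and 3 of 29 astrocyte genes. Splicing regulators had 3 and 10 of 24 and postsynaptic genes 8 and 14 of 34. Over all genes tested they were 1801 and 2122 of 18428. The lists are examples, and their counts were not repeated under total-sum scaling.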

How the data were processed

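Frontal cortex RNA was measured by paired-end sequencing of 101 bases from 4 WT mice at each age, as part of 64 libraries. The deposited values are a signal, named normalized counts here: the authors estimated reads per transcript with Salmon on GRCm38, summed them to genes with tximport and divided them by DESeq2 factors over all libraries. The submitters' processing notes name Salmon 0.11.2, R 3.6.0 and DESeq2 1.19.11, while the study's methods name later versions. The labels name an mRNA kit and the methods a total RNA kit, so whether poly(A) selection preceded the counts is open. The sex of each mouse is not in the labels. The table held 18432 genes, of which 18420 matched GENCODE vM21, 15496 of them protein-coding. Values of low genes were within 0.1 read of a whole number for 35.3% to 58.9% of entries, so whole reads were not recovered and no count test was used, although one had been intended for raw counts. The same low values gave a rough depth of 33.2 to 37.0 M reads at PWK 1 and 26.1 to 32.4 M at PWK 7. These ranges did not overlap, and the part of depth in the results was not tested.

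The log2(normalized count + 1) of genes with a mean of at least 1 was fitted with limma 3.58.1 in R 4.3.3, with a mean-dependent prior, and p-values were adjusted by Benjamini-Hochberg over all genes tested, with a threshold of 0.05. Standard errors follow the fold changes after ±. WT cortex, KI cortex and WT hippocampus were fitted over their own 8 libraries, and genotype by age and region by age over 16. The region by age test took cortex and hippocampus as independent. In the alternative, age and replicate number served as a block in place of the mouse. Ratios of genes were tested by two-sided exact permutation. Shares within a family were taken per kilobase of the longest annotated transcript. Ratios of genes were taken from normalized counts without division by length. They therefore describe a shift between the ages and not the relative abundance of the genes. The fits were run on simulated whole counts in which few genes changed. Most genes passed in the real data and the values were not whole, so this checked the code and not the calls. Named were the core genes of 38 lists, up to 3 called members of each list with the greatest rise and the greatest fall, the 12 largest changes each way among called protein-coding genes with a mean of at least 100 at one age and no overlap, and the 5 called genes of lowest p in region by age, with no genotype by age call to name. Other named genes were chosen after their values were seen. The comparison and the lists were chosen with earlier results of these data known. Alternatives were another pseudocount, other filters, total-sum and quantile scaling, quality weights, one fit of all libraries, a replicate block, a test against a 2-fold change and leaving out each library. Some genes are not reported here.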

Additional observations from a re-analysis of the deposited data

Results flagged for a closer look

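Among 407 groups of 4 libraries, for 204 genes named above, 27 held a library whose gap to the nearest of the others passed Dixon's 95% limit, and chance alone flags about 1 in 20 such groups. Replicate 1 of PWK 1 was the high library for 13 of them. Its normalized counts of striatal genes were 841 for *Drd1*, 461 for *Drd2*, 3758 for *Ppp1r1b*, 965 for *Rarb* and 935 for *Scn4b*. For genes of dividing cells and neuroblasts it had 1078 for *Mki67*, 859 for *Top2a*, 214 for *Mcm3* and 351 for *Igfbpl1*. It was also high for *Gad1* (4394), *Gja1* (5030.1), *Col6a1* (2578) and *Fosb* (96.4), and low for *Gabra5* (4227) and *Kcnq3* (9841). At the same age, replicate 2 was low for *Gfap* (3132) and *Tnr* (8990) and high for *Ntf3* (188), replicate 3 was high for *Etnppl* (6.12) and *Wasf1* (7960.1), and replicate 4 was high for *Cyfip1* (2399). At PWK 7, replicate 1 was high for *Ttr* (919.5) and *Ntrk3* (8719) and low for *Col6a1* (2444), replicate 2 low for *Gabrd* (1551), replicate 3 high for *Igf2bp1* (27.6) and replicate 4 high for *Cdk1* (20.5).

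The age change differed between cortex and hippocampus by the test of region by age for 90 of the 204 genes, against 21.3% of all genes tested. Many of the 204 were named for large changes in cortex and some by this same test, so their count is no result. The values below are the log2 fold change in cortex minus that in hippocampus. Among genes of young neurons, axon guidance and the cytoskeleton, it was -1.84 for *Cd24a*, 0.76 for *Dcx*, -0.94 for *Dpysl3*, -0.82 for *Marcksl1*, -0.35 for *Chl1*, -0.42 for *Ephb2* and -0.98 for *Plxna1*. The remaining ones were -1.05 for *Plxna4*, -1.14 for *Tubb2b*, -0.38 for *Tuba1a*, -0.57 for *Map1b*, 0.36 for *Kif5a* and 0.91 for *Nefm*. NMDA receptor genes had -0.38 for *Grin2a*, -0.52 for *Grin2b*, 1.75 for *Grin2c* and -0.36 for *Grin2d*. For AMPA and kainate receptor genes the difference was -0.59 for *Gria1*, -0.25 for *Gria2*, 0.75 for *Gria4*, -0.40 for *Neto2* and -1.71 for *Shisa6*. GABA-A receptor, interneuron and bicarbonate genes had -1.37 for *Gabra5*, 0.42 for *Gad1*, 1.83 for *Pvalb*, 0.58 for *Sst*, 0.85 for *Vip*, 1.51 for *Lamp5* and 0.31 for *Car2*. The ion channel genes differed by -0.62 for *Scn3a*, -1.36 for *Scn3b*, 0.58 for *Kcna2*, 0.15 for *Kcnc1*, -0.59 for *Kcnq3*, 0.75 for *Hcn4* and -1.28 for *Cacna1h*. Pre- and postsynaptic genes and those of the WAVE complex differed by 0.39 for *Snap25*, 0.46 for *Vamp1*, 0.44 for *Camk2a*, -1.12 for *Camk2b*, -0.46 for *Dlg3*, -0.25 for *Dlg4* and 0.25 for *Dlgap1*. To these came -0.31 for *Abi2* and -0.69 for *Wasf1*. Genes of nets and the matrix had 0.62 for *Hapln1*, 1.85 for *Hapln4*, 0.80 for *Ncan* and -0.65 for *Tnr*. In glial genes it was -2.17 for *Mobp*, 0.28 for *Cspg4*, 0.24 for *Pdgfra*, 0.55 for *Aldoc*, 0.32 for *Gja1*, 0.46 for *Slc1a2* and 0.45 for *C1qa*. The others had 0.33 for *P2ry12*, -1.58 for *Itgax* and -0.48 for *Lpl*. Vascular and meningeal genes were more positive in cortex, by 1.62 for *Col6a1*, 0.91 for *Slc22a6*, 1.70 for *Slc47a1*, 0.40 for *Cldn5*, 0.41 for *Slc2a1* and 0.54 for *Slco1a4*. Transcription, RNA and imprinted genes differed by -0.88 for *Bcl11b*, 0.71 for *Cux2*, 0.80 for *Tbr1*, 1.19 for *E2f1*, -0.28 for *Ptbp2*, -0.22 for *Rpl3* and -1.65 for *Dlk1*. Beside them stood 0.88 for *Plagl1*, 0.27 for *Peg3* and -0.65 for *Nr4a3*. Receptor and neurotrophin genes had 0.97 for *Htr1a*, -2.55 for *Ntf3* and -3.36 for *Mc4r*. Outside the lists the difference was 6.66 for *Igfn1*, 3.67 for *Mei1*, 2.80 for *BC030499*, 2.74 for *C130074G19Rik*, -2.72 for *Doc2b*, -1.46 for *Dgkh* and -2.12 for *Tunar*. The rest had -5.00 for *Trpa1*, -3.04 for *Slc18a2*, -2.86 for *Rgs9bp*, -0.65 for *Mkrn3* and -0.63 for *Trim67*.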

How the results depend on the processing

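The counts of changed genes between PWK 7 and PWK 1 stayed within 1.5 times the value given above for WT cortex, KI cortex, WT hippocampus and region by age with a pseudocount of 10, without a filter on low values, with genes of mean at least 100, with equal library totals, with sample quality weights and with one fit of all 64 libraries. Testing against a log2 fold change of 1 with limma's treat method left 1659 genes in WT cortex, since this asks for more than any change. Leaving out each library in turn gave 11335 to 11934 genes in WT cortex, 11610 to 11910 in KI cortex, 10606 to 11112 in WT hippocampus, 3430 to 4343 for region by age and 0 to 1 for genotype by age. The 1 gene called without replicate 1 of WT cortex at PWK 7 was *Gm20708*, and that without replicate 4 of KI cortex at PWK 7 was the pseudogene *Rps12-ps3*.

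With the replicate number as a block the counts were 11821 in WT cortex, 11850 in KI cortex, 10803 in WT hippocampus, 0 for genotype by age and 3876 for region by age, of which 3557 were also called without the block. Same-numbered cortex and hippocampus libraries had deviations correlated at 0.102 to 0.256 at PWK 1 and -0.06 to 0.06 at PWK 7, so the data did not show the pairing at both ages, and the same number at PWK 1 and PWK 7 marks different mice.

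Of the genes named above, 5 lost their call in WT cortex when some single library was left out (*Gja1*, *Gria1*, *Ppp1r1b*, *Rorb* and *Slc22a6*) and 13 gained one, among them *Bub1b*, *Ccne2*, *Drd1*, *E2f1*, *Igfbpl1*, *Lin28b*, *Nefl*, *Nefm* and *Npas4*. One fit of all 64 libraries lost the calls of *Egr2*, *Gja1*, *Gria1*, *Hbb-bs*, *Itgax*, *Nr4a1*, *Slc22a6* and *Ttr*, total-sum scaling those of *Gja1* and *Gria1*, quantile normalization that of *Dlg3* (adjusted p = 0.0566) and the replicate block that of *Gria1* (adjusted p = 0.0715). Quality weights gained *Ccne2*, *Enpp6* and *Npas4*, the block *Ccne2*, quantile normalization *Igfbpl1*, *Nefl* and *Nefm*, and the fit of all libraries *Igfbpl1*. The cause of these changes was not tested. Signs turned only for genes without a call. Under quantile normalization *Dlk1* had -0.04, *Rpl3* 0.042, *Rps6* 0.079, *Tnr* 0.071 and *Vamp2* 0.031, and with quality weights *Emx1* had -0.079. Over the fits that left out a library, log2 fold changes spanned -0.033 to 0.053 for *Shank3*, -0.147 to 0.417 for *Dlk1*, -0.173 to 0.082 for *Emx1*, -0.037 to 0.012 for *Rps6*, -0.054 to 0.003 for *Tnr* and -0.072 to 0.001 for *Vamp2*. No estimate of counting error enters these tests, since the deposited values are scaled, and values below about 10 normalized counts rest on few reads.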

Other observations

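Other gene families in WT cortex were chosen after their values were seen, so their counts are no test. Of all genes tested, 32.5% rose and 32.7% fell. Of 14 clustered protocadherin alpha genes, whose products are thought to give neurons their surface identity, 13 fell and 0 rose, with a median log2 fold change of -1.64. The median was -1.67 in KI cortex and -1.59 in WT hippocampus. Their isoforms share constant exons, so reads may be divided between them. The beta and gamma clusters fell less, with 16 of 21 and 14 of 22 members and medians of -0.48 and -0.47. Of 45 collagen genes 26 fell and 10 rose (median -0.83), and of 19 ADAMTS proteases, which cut matrix proteins, 13 fell and 2 rose. All 8 subunits of the TRiC chaperonin, which folds actin and tubulin, fell, with a median of -0.63, as did all 8 arginine methyltransferases (median -0.54), 20 of 25 Sm and LSm genes of RNA splicing and decay, and 28 of 39 proteasome subunits. In the opposite direction, 14 of 15 genes of the mitochondrial genome rose, with a median of 0.78, beside a median of 0.03 for nuclear respiratory chain genes. Glutathione S-transferases, which detoxify electrophiles, rose for 13 of 17 members, with a median of 1.00. The 382 zinc finger genes of the Zfp series had 107 risen and 108 fallen members and a median of 0.01. Their 28.0% and 28.3% lay near the shares of all genes tested.

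By annotated class, 38.1% of 720 lincRNA genes rose and 16.4% fell, and 40.0% of 573 antisense genes rose and 11.0% fell, against 31.8% and 36.4% of 15461 protein-coding genes. Reads of antisense genes cannot be told from those of their partners where the counting did not use strand, and whether it did is not given in the sources used here.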
